A study of Arabidopsis thaliana with 9 samples.

Results

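A small group of nuclear genes of Arabidopsis thaliana seedlings had its lowest signal after 2 days on callus-inducing hormones, below both the starting level and the level at 8 days. The group holds 38 probe sets, each for 1 gene, out of 10343 in the table and 5455 that are named by exactly 1 nuclear gene. A probe set is the group of short array probes that reads 1 transcript. Members were chosen on the measured values. With L0, L2 and L8 as the mean log2 signals of the 3 arrays at 0 d, 2 d and 8 d, the highest of the 3 means had to be at least 7, and both L0 minus L2 and L8 minus L2 had to be at least 0.9. The 3 conditions were met by 89 probe sets, of which 42 have 1 nuclear gene. Of these, UGT73B4, UGT73B5, COR47 and AT1G52050 were left out by name. Because the rule used the fall to 2 d and the rise to 8 d, calls of either only describe the members and are no test.

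The arrays read total RNA of whole wild-type seedlings grown on Murashige and Skoog (MS) medium. At 0 d they were 4 days old. For the 2 d and 8 d groups, seedlings of that age had been moved to MS medium with 2.26 µM 2,4-D, a synthetic auxin, and 0.46 µM kinetin, a cytokinin, and collected 2 or 8 days later. Each group had 3 arrays. The labels do not state whether these came from separate cultures. A p-value thus reflects how far the arrays of a group scatter, which may be technical scatter alone. The fit pooled this scatter over the 3 groups, so results at 8 d against 0 d also carry that of the 2 d arrays. Seedlings kept without hormones to the later ages were not analysed here, so time on hormones and seedling age cannot be told apart. In whole seedlings, fewer cells of a type and less RNA per cell cannot be told apart either.

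Callus is a mass of dividing cells that forms when plant tissue is given an auxin together with a cytokinin, and it starts from cells of the root and vascular tissue that follow a lateral root programme. Plant cells that run short of oxygen switch to fermentation and induce a compact set of anaerobic response genes. Expansins loosen the wall during cell growth, and calmodulin-like proteins bind calcium and relay calcium signals. These are general background.

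Median signals ran from 445.1 to 545.8 over the 9 arrays. Nearly every probe set in the table, 10323 of 10343 (99.8%), had an unadjusted F-test p under 0.05 across the time points. The table thus looks to have been chosen on these arrays, and adjusted p-values from it are too small. Over all probe sets the median log2 change was 0.19 at 2 d against 0 d, 0.26 at 8 d against 2 d and 0.40 at 8 d against 0 d. Hybridisation controls, bacterial and phage transcripts added to every sample, had geometric means of 436.7 to 472.3 at 2 d, below the 512.9 to 558.4 at 0 d and the 490.7 to 515.8 at 8 d. Of the tissue marker lists, all 10 measured photosynthesis genes had mean signals of 6345 or more at 0 d, from PORB to LHCB4.1 at 16670. At 2 d against 0 d 1 of the 10, PORB, was called lower, and 7 were called lower at 8 d than at 2 d. At 8 d against 0 d 9 were called lower, with a median of -1.69 over the 10. Both measured root hair genes, EXPA7 and AT1G30870, went from 537 and 1953 at 0 d to 103 and 193 at 2 d and stayed at 94.3 and 196 at 8 d. No endodermis or suberin marker was among the probe sets named by exactly 1 gene. The part of these markers in the dip was not tested.

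Among the 38 members, the mean signal at 0 d ranged from 105 to 4319 with a median of 446, at 2 d from 36.6 to 1744 with a median of 103, and at 8 d from 123 to 6729 with a median of 458. The 2 d signal was between 2.44% and 53.4% of the 0 d signal, with a median of 38.1%. For 36 of the 38, every 2 d array was below every 0 d and every 8 d array, which holds for 8.3% of all probe sets; the rule used these contrasts, so nothing is read from that difference. The exceptions were AT3G54150, whose 2 d replicate 1 at 131.1 lay above 2 of the 0 d arrays, and AT3G51660, whose 2 d replicate 1 at 329.1 lay above the 8 d replicate 2 at 324.1. A probe set was called where limma's adjusted p was under 0.05 and the log2 difference was 1 or more. By this rule 33 members were called lower at 2 d than at 0 d (5.2% of all probe sets) and 37 higher at 8 d than at 2 d (7.36%). Both calls together held for 32 (0.657%). A minimum of 0.9 on both differences nearly sets these counts beforehand, so they describe the members and are no test of the dip. Mean signals at 2 d were under 100 for 18 members, and without detection calls it cannot be said whether such signals lie above background, so folds that rest on them are imprecise. After centring on the hybridisation controls, which were lowest at 2 d, 24 of the 38 still met the rule.

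**Figure D1:**
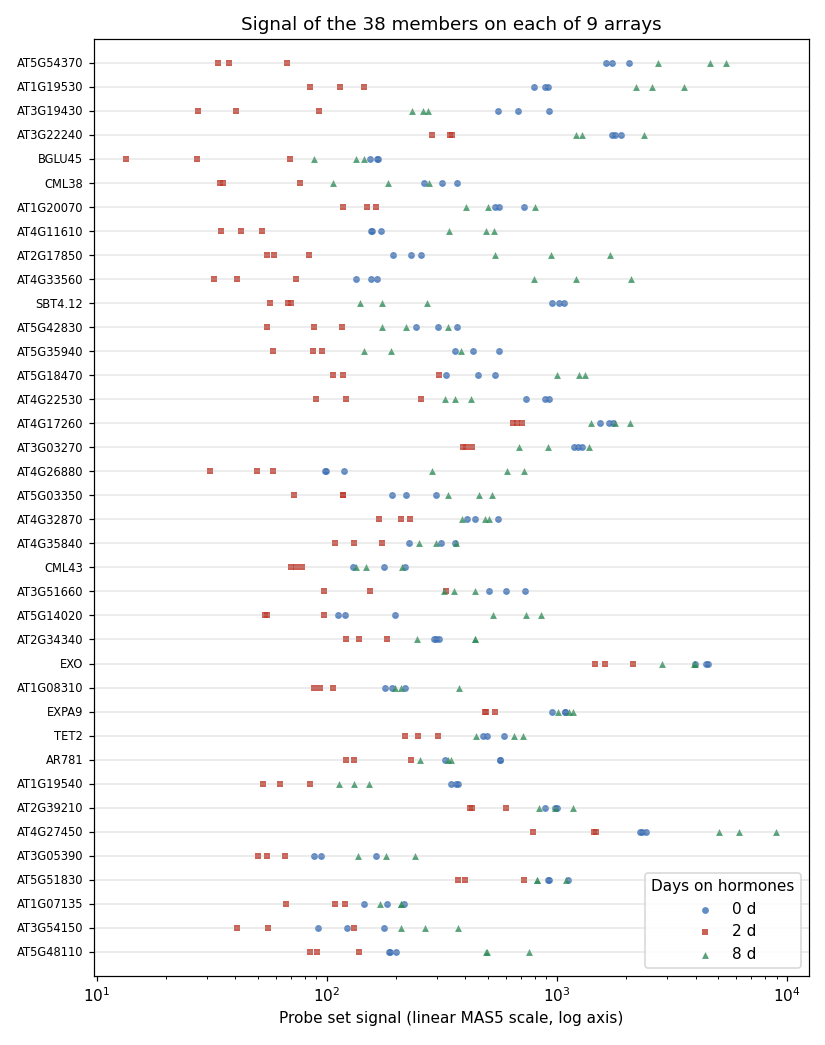
Probe set signal (log axis) of each of the 38 members on the 9 arrays, 1 row per gene, with blue circles for 0 d, red squares for 2 d and green triangles for 8 d; genes are ordered from the largest to the smallest of their smaller difference. The red squares lie left of the other points in 36 of the 38 rows.

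Most genes that fell early were not called higher again. Among named nuclear probe sets, 272 were called lower at 2 d than at 0 d. Of these, 35 were called higher at 8 d than at 2 d, 37 lower and 200 neither way. Over all probe sets 7.36% were called higher and 14.7% lower there, so most of the table was not called higher either. Of those 35, 32 are members.

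The deepest dip was in AT5G54370. Its signals were 1743, 2057 and 1632 on the 0 d arrays, 66.9, 37.7 and 33.6 on the 2 d arrays, and 4622, 2752 and 5402 on the 8 d arrays. All 2 d arrays were far below the rest, and all 8 d arrays were above all 0 d arrays. On the log2 scale it was at -5.36 (SE 0.29) at 2 d against 0 d and at 6.54 (SE 0.29) at 8 d against 2 d, where SE is the standard error from limma over 3 arrays per group. The reference table gives this gene, like 30 of the 38 members, only its locus as a symbol, so no function is stated for it. Only 8 members have a name.

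AT3G19430 also lost nearly all of its signal and regained part of it. It read 680.1, 921.1 and 556.5 at 0 d, then 92.3, 40.2 and 27.6 at 2 d, and 274.9, 260.8 and 234.7 at 8 d. The 3 groups did not overlap. AT3G22240, in contrast, came back to around its starting level. It read 1732, 1893 and 1783 at 0 d, 287.3, 342.0 and 349.9 at 2 d, and 2394, 1281 and 1208 at 8 d. Its 8 d arrays lay on both sides of the 0 d arrays, with 1 above and 2 below all of them. AT1G20070 showed the same course at a lower level, from 559.6, 537.4 and 715.4 through 162.9, 118.1 and 149.3 to 800.7, 403.9 and 502.8, with 0 d and 8 d overlapping. AT4G11610 went past its starting level, from 171.1, 155.5 and 157.1 through 34.6, 42.3 and 52.2 to 490.7, 339.5 and 534.2, and no 2 of its groups overlapped.

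Genes of the anaerobic response were the one group among 19 gene lists that had members in the dip. The list has 46 genes, written by locus from general knowledge when large changes of some of them in these data were already known, so its overlap with the members is no independent evidence. Of the 46, 15 were measured under a name and 7 of these are members. The other 10 lists with a measured gene, from photosynthesis (10 genes) to single genes of the clock and of ethylene signalling, had none, apart from COR47, UGT73B4 and UGT73B5, which met the rule and were left out by name. Over all 15 anaerobic list genes, 6 were called lower at 2 d than at 0 d (5.2% of all probe sets), and these are members, chosen for that fall, so nothing is read from the count. Limma called 0 higher at 2 d (9.75% of all probe sets). At an unadjusted p under 0.05, 2 were higher at 2 d (42.6% of all probe sets) and 10 lower (25.0%). Of those lower, 3 are not members, and the others are members chosen for that fall. At 8 d against 2 d, 12 were called higher (7.36%), 7 of them members chosen for that rise, and 0 lower (14.7%). At an unadjusted p under 0.05, 15 were higher there (48.0% of all probe sets) and 0 lower (30.5%). The difference between 8 d and 0 d was not used by the rule. The list, however, was written with some changes in these data known, so its counts here only describe it. For 8 d against 0 d limma called 10 of the 15 higher and 0 lower, where 25.4% and 18.1% of all probe sets were. At an unadjusted p under 0.05 there were 11 higher and 1 lower, where the shares of all probe sets were 54.5% and 35.9%. The median of the 15 at 8 d against 0 d was 1.47, beside 0.40 for all probe sets.

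Within that list, AT1G19530 had the deepest dip. Its signals were 794.7, 882.7 and 918.3 at 0 d, 114.5, 84.7 and 145.5 at 2 d, and 3551, 2210 and 2586 at 8 d. The groups did not overlap, and the 8 d level stood 1.66 (SE 0.21; limma, adjusted p = 3.8e-05) above the 0 d level on the log2 scale. AT4G33560 started low and ended high, from 155.0, 164.6 and 134.1 through 32.4, 73.2 and 40.8 to 2096, 1211 and 793.4, and its 3.07 (SE 0.35; adjusted p = 1.8e-05) at 8 d against 0 d was the largest such value among the members. AT2G17850 followed the same order of groups, with 233.2, 193.9 and 256.6 at 0 d, 59.2, 55.0 and 83.4 at 2 d, and 1701, 939.7 and 536.2 at 8 d. The gain over 0 d was 2.07 (SE 0.34; adjusted p = 0.00024). For AT4G33560 and AT2G17850 all 2 d signals were under 100, so the size of their dip is imprecise.

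AT4G27450 kept a high signal throughout. Its arrays read 2344, 2293 and 2442 at 0 d, 790.6, 1453 and 1472 at 2 d, and 8952, 6187 and 5047 at 8 d, with no overlap between groups. Its fall to 2 d, -0.99 (SE 0.25), rested in good part on 2 d replicate 1, without which it no longer met the rule. At 8 d it was 1.47 (SE 0.25; limma, adjusted p = 0.00032) above 0 d.

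The other list members were not called higher at 8 d than at 0 d. CML38 is a calmodulin-like calcium-binding protein that is known from low-oxygen responses. Its signals were 317.5, 366.9 and 263.3 at 0 d, 76.2, 35.4 and 34.3 at 2 d, and 278.3, 184.4 and 106.6 at 8 d. The 8 d arrays reached from within the 0 d range to well below it, and the difference of -0.83 (SE 0.37; adjusted p = 0.052) was not called. AT4G17260 had close replicates, with 1683, 1759 and 1532 at 0 d, 641.6, 673.0 and 705.6 at 2 d, and 2072, 1404 and 1779 at 8 d, and its 8 d level overlapped the start, at 0.06 (95% interval -0.25 to 0.37). AT3G03270 read 1230, 1286 and 1191 at 0 d, 428.6, 388.6 and 401.0 at 2 d, and 1384, 912.6 and 681.8 at 8 d. Its 8 d arrays spread around and below the 0 d arrays, at -0.38 (95% interval -0.84 to 0.08).

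Of the 8 anaerobic list genes that are not members, 6 were called higher at 8 d than at 0 d. That none of the 8 had a dip of the required size follows from the rule, so their 2 d values are given only as a description. In AT4G10270, AT3G27220, AT3G10020 and AT1G26270 every 2 d array was below every 0 d and 8 d array, as in 8.3% of all probe sets. In AT4G17670, PDC2, AT5G44730 and AT3G10040 this was not so. Values at 2 d against 0 d lay on both sides of 0, with AT3G27220 at -0.64 (SE 0.17), AT3G10020 at -0.69 (SE 0.16), AT4G17670 at 0.69 (SE 0.19) and AT5G44730 at 0.60 (SE 0.17). For these 4 limma's adjusted p was under 0.05 (0.009, 0.0034, 0.01 and 0.012) with too small a change for a call. PDC2, a pyruvate decarboxylase of ethanolic fermentation, read 429.0, 456.5 and 342.4 at 0 d, 682.1, 469.3 and 331.5 at 2 d, and 1660, 1270 and 1184 at 8 d. Its 0 d and 2 d arrays overlapped and all 8 d arrays were higher, with 1.74 (SE 0.24; adjusted p = 6.6e-05) at 8 d against 0 d. The largest gain at 8 d among the 8 was in AT4G10270 at 2.37 (SE 0.25; adjusted p = 9.4e-06), whose 2 d value of -0.58 (SE 0.25) was not called. AT1G26270 at 0.50 and AT3G10020 at -0.31 were not called at 8 d against 0 d.

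**Figure D2:**
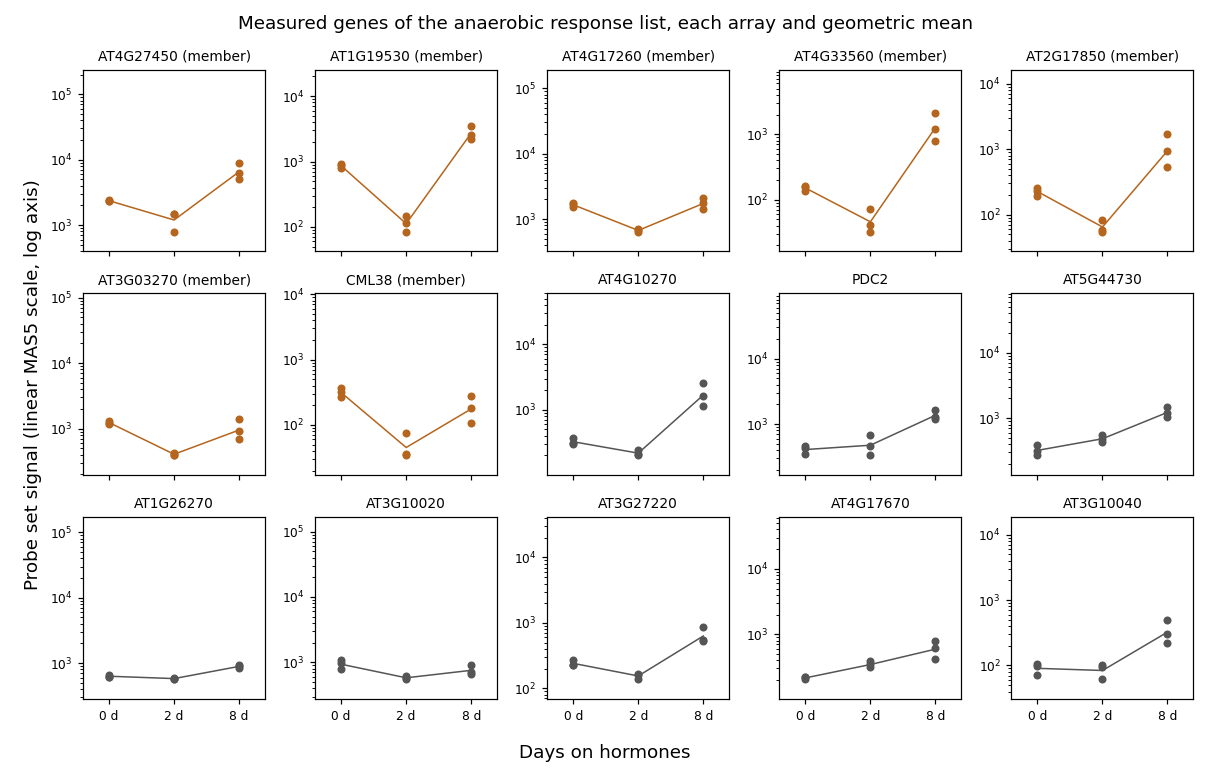
Probe set signal (log axis, each panel spanning the same number of folds) of the 15 measured genes of the anaerobic response list at 0 d, 2 d and 8 d, with a point per array and a line through the geometric means; the 7 members are brown and the 8 others grey. The members are lowest at 2 d by the rule that chose them, and 10 of the 15 genes were called higher at 8 d than at 0 d.

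Members with a role at the cell wall or outside the cell included an expansin, EXORDIUM, a beta-glucosidase and a subtilase. EXPA9, an alpha-expansin, had the tightest replicates, with 1087, 955.8 and 1087 at 0 d, 537.9, 488.7 and 493.5 at 2 d, and 1130, 1010 and 1179 at 8 d. It stood at about its starting level at 8 d, 0.08 from it (95% interval -0.15 to 0.32). Of the 8 measured genes with an EXPA or EXPB symbol, EXPA9 was the only member. Its values at 2 d against 0 d and at 8 d against 2 d were -1.04 and 1.13. The other 7 were called higher at 8 d than at 0 d (EXPA4, EXPA15, EXPA20 and EXPB3, from 2.00 to 2.30) or lower (EXPA7, EXPA8 and EXPA16, from -2.95 to -2.16). EXPA9 was not called. Over all probe sets 25.4% were called higher, 18.1% lower and 56.5% neither way.

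EXO (EXORDIUM), an extracellular protein of brassinosteroid-linked cell expansion, had a high signal at all times. It read 4443, 4522 and 3991 at 0 d, 2147, 1469 and 1616 at 2 d, and 3976, 2867 and 3957 at 8 d. Each 8 d array was below each 0 d array, but the difference of -0.28 (95% interval -0.65 to 0.10) was not called.

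BGLU45 belongs to the family 1 beta-glucosidases and is known to act on glucosides of lignin precursors. Its signals of 154.2, 164.7 and 166.1 at 0 d became 69.0, 13.4 and 27.3 at 2 d and 133.9, 145.4 and 88.2 at 8 d. The 2 d arrays spread the most of all members, over 2.36 log2 units, so its fall of -2.46 (SE 0.46) is poorly fixed. The gene next to it, BGLU46, of the same family, was also lower at 2 d, at -1.41 (SE 0.22; limma, adjusted p = 0.00049), but did not come back and was at -2.21 (SE 0.22; adjusted p = 7.7e-06) at 8 d against 0 d. BGLU45 was at -0.43 (95% interval -1.46 to 0.59) in that comparison. Its 0 d and 8 d arrays did not overlap, and the interval also carries the spread of its 2 d arrays. None of the other 6 measured genes with a BGLU symbol met the rule, and BGLU25 came nearest, with -1.56 at 2 d and a return of 0.70.

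SBT4.12 encodes a subtilisin-like protease. It had 1017, 1074 and 953.3 at 0 d, 56.3, 69.9 and 67.7 at 2 d, and 139.7, 172.8 and 271.3 at 8 d. It had the lowest 8 d level relative to its start among the members, at 18.5% of the 0 d signal, and a difference of -2.44 (SE 0.21; limma, adjusted p = 2.5e-06). The other measured gene with an SBT symbol, SBT1.3, was at 0.34 at 2 d against 0 d.

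Among proteins of signalling and membranes, CML43 is the second calmodulin-like member. It read 177.6, 129.7 and 219.3 at 0 d, 73.8, 70.0 and 77.8 at 2 d, and 134.5, 147.9 and 211.8 at 8 d, with 0 d and 8 d overlapping. Of the 5 measured CML genes, CML42, CML23 and CML30 also had lower signals at 2 d, at -1.23, -1.27 and -0.65, but they were at -0.51, 0.02 and -0.44 at 8 d against 2 d. All 3 were called lower at 8 d than at 0 d (18.1% of all probe sets), from -1.74 to -1.09. With 64 added to each signal CML23 (-0.75) and CML30 (-0.80) were not, nor was CML30 with 16 added. Neither CML38 nor CML43 was called in that comparison in the main fit. CML38 was called lower after quantile normalization (-1.17), after median centring (-1.1) and without 8 d replicate 1 (-1.16).

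TET2, a tetraspanin of the plasma membrane, read 497.0, 478.2 and 590.0 at 0 d, 218.3, 249.5 and 302.8 at 2 d, and 714.7, 653.0 and 445.8 at 8 d. Its 8 d level overlapped the start, at 0.19 (95% interval -0.23 to 0.61). Of the 4 other measured TET genes, TET8 was at -1.57 at 2 d and at a further -0.45 by 8 d, and TET3, TET6 and TET7 moved by less than 1 log2 unit from 0 d to 2 d and again to 8 d. AR781, the last member with a symbol, went from 567.3, 566.5 and 326.8 through 231.6, 121.4 and 131.8 to 347.5, 337.1 and 254.9, and was at -0.60 (95% interval -1.22 to 0.01) at 8 d against 0 d.

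**Figure D3:**
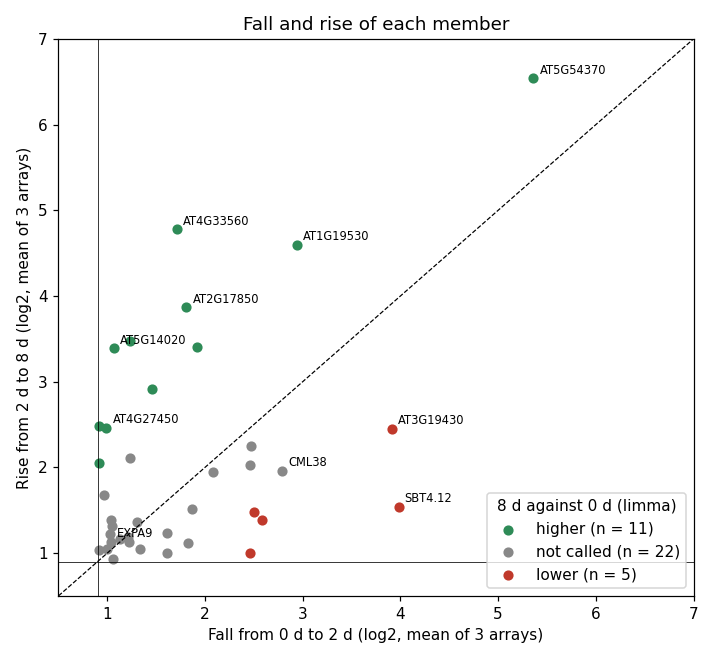
Fall from 0 d to 2 d (horizontal axis) and rise from 2 d to 8 d (vertical axis) of the 38 members, both as differences of mean log2 signal over 3 arrays per group; thin lines mark the rule's minimum of 0.9 and the dashed line an equal fall and rise. The 11 green genes above the line were called higher at 8 d than at 0 d, the 5 red genes below it lower, and 22 grey genes were called neither way.

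The level at 8 d against the level at 0 d was the one difference between groups that the rule did not set, although it reads the same arrays. By this comparison 11 members were called higher at 8 d than at 0 d and 5 lower, while 22 were not called. Over all probe sets 25.4% were called higher and 18.1% lower, and 56.5% were not called, so the members' counts lie near those of the table. The median difference of the members was 0.06, beside 0.40 for all probe sets, and the range was -2.44 to 3.07. The arrays of 0 d and 8 d overlapped in 19 of the 38, and in the other 19 they did not, as in 91.9% of all probe sets. In 12 every 8 d array was above every 0 d array (55.2% of all probe sets), and in 7 below (36.7%).

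The 11 members that ended higher had rises of 2.05 to 6.54 after falls of 0.91 to 5.36. Besides AT5G54370, AT4G11610 and the anaerobic list genes AT1G19530, AT4G33560, AT2G17850 and AT4G27450, they were AT5G14020, AT4G26880, AT5G48110, AT5G18470 and AT3G54150. AT5G14020 went from 112.0, 198.5 and 119.9 through 97.4, 54.0 and 55.0 to 731.8, 528.3 and 856.3. Its 8 d arrays stood far above the others, by 2.32 (SE 0.28; limma, adjusted p = 2.9e-05) over 0 d, whereas its low point at 2 d was shallow.

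AT4G26880 had much the same course, from 99.0, 98.4 and 118.2 through 58.1, 49.6 and 30.9 to 718.3, 286.8 and 604.9, with 2.25 (SE 0.32; adjusted p = 8.8e-05) at 8 d against 0 d. AT5G48110 read 199.0, 188.5 and 186.7, then 84.4, 90.6 and 137.6, then 490.9, 496.5 and 754.6, and was 1.57 (SE 0.21; adjusted p = 4.8e-05) above 0 d at 8 d. AT5G18470, at 1.46 (SE 0.35; adjusted p = 0.0026), had 306.4 on 2 d replicate 1 against 118.0 and 106.5 on the other 2 d arrays. Both it and AT3G54150 thus varied widely at 2 d. The call of AT3G54150, at 1.13 (SE 0.40; adjusted p = 0.021), ended after quantile normalization (0.70), median centring (0.86), array weights (0.92) and adding 64 to each signal (0.83), as it did without replicate 3 of 0 d (0.90) or of 8 d (0.91). That of AT5G54370, at 1.18 (SE 0.29; adjusted p = 0.0027), ended after median centring (0.91), with array weights (0.91) and without 8 d replicate 3 (0.98).

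The 5 members that ended lower had 2 d levels between -3.98 and -2.46 from their start and came back by at most 2.45. SBT4.12 and AT3G19430 are described above, and the latter was at -1.46 (SE 0.36; limma, adjusted p = 0.0032). AT4G22530 went from 920.9, 890.0 and 731.3 through 257.7, 120.8 and 89.5 to 361.8, 324.9 and 422.1, with groups that did not overlap, and was at -1.20 (SE 0.31; adjusted p = 0.0041). AT1G19540 read 364.0, 345.5 and 372.4 at 0 d, 62.8, 52.7 and 84.2 at 2 d, and 152.1, 130.6 and 112.7 at 8 d, at -1.46 (SE 0.17; adjusted p = 2.0e-05). AT5G35940, at -1.02 (SE 0.33; adjusted p = 0.013), had 145.1, 189.2 and 381.1 at 8 d, of which the last lay within its 0 d arrays of 429.7, 560.9 and 362.2. Its call ended without 8 d replicate 1 (-0.72), without 8 d replicate 2 (-0.92) and without 0 d replicate 2 (-0.85), and also after centring on the hybridisation controls (-0.94) or adding 16 (-0.96) or 64 (-0.83) to each signal.

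For the 22 members not called, the difference between 8 d and 0 d lay between -0.83 and 0.89. In 15 of them the 95% interval stayed within 1 log2 unit either way, and in 7 it reached further, so a change of 2-fold lies within those 7 intervals. AT5G03350 at 0.89 and AT3G05390 at 0.71 had adjusted p-values of 0.0049 and 0.023 (limma) below the threshold but too small a change. The 4 narrowest intervals were those of EXPA9 and AT4G17260, given above, with AT4G32870 at -0.02 (95% interval -0.38 to 0.35) and AT2G39210 at 0.05 (95% interval -0.32 to 0.42).

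**Figure D4:**
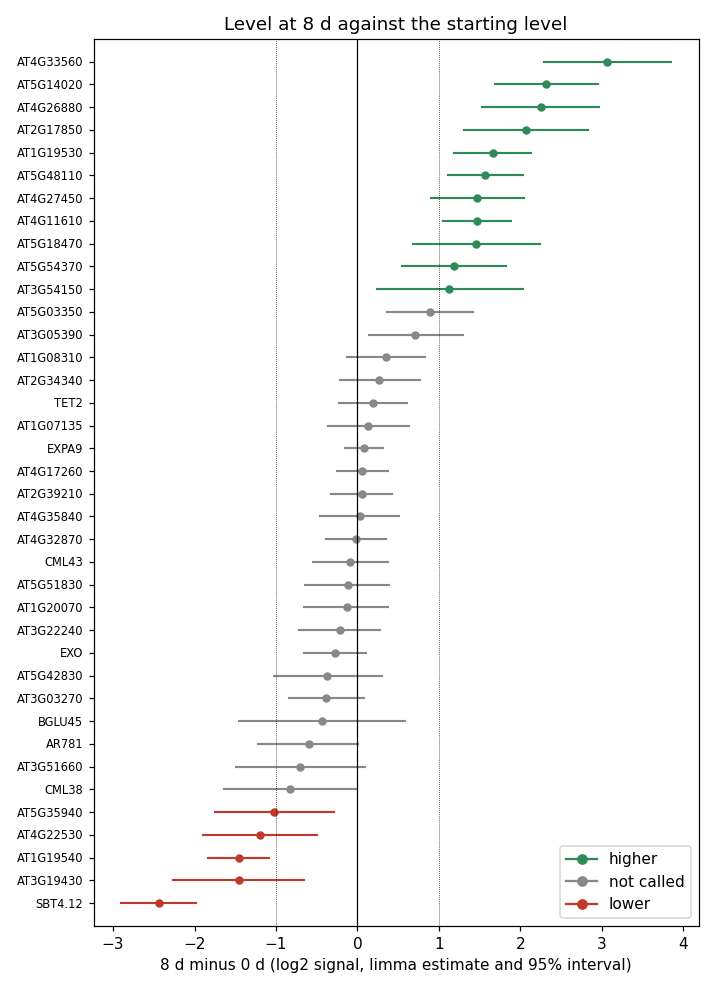
Difference of mean log2 signal between 8 d and 0 d for the 38 members (points) with the 95% interval from limma (lines), ordered by size; dotted lines mark a change of 1 log2 unit either way. Green marks the 11 genes called higher, red the 5 called lower, and grey the 22 not called.

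Shallow dips made up a large share of the group. The smaller of the fall and the rise was under 1.2 for 19 members and at least 2 for 5. Just inside the minimum were AT5G48110, AT3G54150 and AT1G07135, each with a smaller difference of 0.91. AT1G07135 read 182.1, 217.3 and 144.4 at 0 d, 108.2, 66.7 and 120.4 at 2 d, and 170.0, 210.3 and 210.2 at 8 d. Just outside were AT2G38090 and GSTU26 at 0.89 and AT1G06620 at 0.87. GSTU26, a glutathione transferase, had means of 738, 305 and 565 at 0 d, 2 d and 8 d.

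The remaining 10 members have only a locus, and 8 of them had a smaller difference under 1.2. AT5G42830 and AT3G51660 had smaller differences of 1.51 and 1.12, with 2 d arrays of 115.9, 88.0 and 54.7 and of 329.1, 154.2 and 97.1. AT4G35840, AT4G32870 and AT5G03350 lay between 1.13 and 1.23. AT2G34340, AT1G08310, AT2G39210, AT5G51830 and AT3G05390 lay between 0.93 and 1.05, and AT5G51830 alone of all members was not called higher at 8 d than at 2 d. Its 2 d replicate 1, at 716.7, was far above the 400.2 and 369.9 of the other 2 d arrays.

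Chromosomal position was not part of the rule. Chromosomes 1 to 5 held 7, 5, 6, 9 and 11 members, from 0.493% of the named probe sets of chromosome 1 to 1.13% of those of chromosome 4. In the reference annotation AT1G19530 and AT1G19540 are next to each other among protein-coding genes, the 1 such pair of members. Both dipped to between 52.7 and 145.5 on the 2 d arrays, but at 8 d AT1G19530 was called higher than at 0 d and AT1G19540 lower, at 1.66 and -1.46.

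Other direct neighbours were measured for 15 members, 16 probe sets in all. None of the 16 was called both lower at 2 d than at 0 d and higher at 8 d than at 2 d. That pair of calls was held by 0.657% of all probe sets. As 32 of the 35 named nuclear probe sets with both calls are members, which were not counted here, nothing is read from this. Next to AT4G33560, AT4G33550 had mean log2 signals of 11.43, 9.25 and 6.33 at 0 d, 2 d and 8 d. It was thus at -5.10 (SE 0.21; limma, adjusted p = 6.3e-08) at 8 d against 0 d where AT4G33560 was at 3.07. Next to AT4G27450, PORB of chlorophyll synthesis was at -2.12 (SE 0.13; adjusted p = 3.4e-07) at 8 d, and next to AT5G54370, THE1, a receptor kinase of the cell wall, at -1.10 (SE 0.13; adjusted p = 2.6e-05). CML38 had a neighbour, AT1G76660, that was called higher at 8 d than at 2 d, at 1.07 (SE 0.15; adjusted p = 0.00014), but it had not been lower at 2 d (0.48). That call ended after median centring (0.97), centring on the hybridisation controls (0.95) and adding 64 to each signal (0.94), and without 2 d replicate 3 or 8 d replicate 1 (1.0 in both).

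The arrays of a group spread more for the members than for the table. The median range over 3 arrays was 0.32, 0.71 and 0.68 log2 units at 0 d, 2 d and 8 d for the members, against 0.24, 0.31 and 0.25 for all probe sets. At 2 d the members were far dimmer, with a median of 103 against array medians of 501.3 to 510.4. The 2 d ranges thus compare unlike signal levels. At 8 d the anaerobic list genes shared a direction of spread. In all 7 list members and in 14 of the 15 measured list genes, 8 d replicate 1 was the highest of the 3 arrays, as it was in 30.3% of all probe sets. Replicate 3 was the lowest in 9 of the 15, and the median distance of the list genes from their 8 d mean was 0.44 in replicate 1 and -0.37 in replicate 3. Among the 31 other members replicate 1 was highest in 13 and replicate 3 in 15. Over all probe sets the median distance was -0.01 in replicate 1 and 0.00 in replicate 3. The pattern was noticed in these data and its source was not tested. Without 8 d replicate 1, 10 of the 15 list genes were still called higher at 8 d than at 0 d, and CML38 was called lower, at -1.16.

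**Figure D5:**
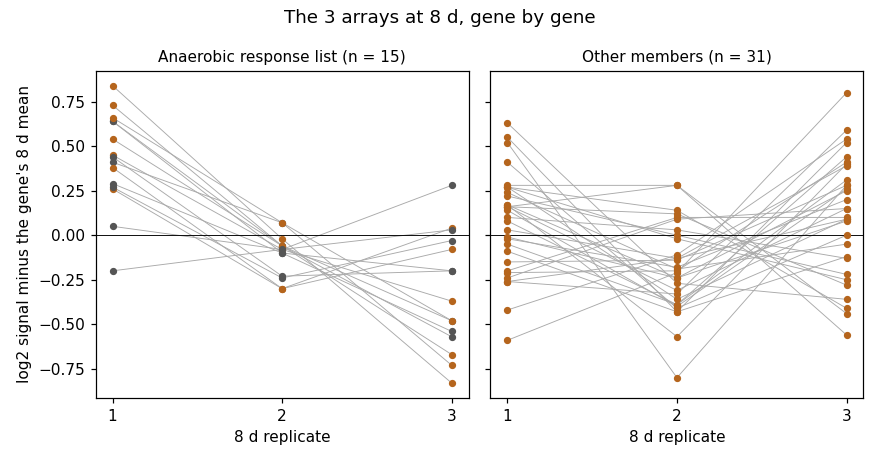
Log2 signal of each gene on the 3 arrays at 8 d (horizontal axis, replicate number) minus the mean of the 3, for the 15 measured anaerobic response list genes (left) and the 31 other members (right); brown points are members, grey points list genes that are not, and a line joins 1 gene. On the left, replicate 1 is highest in 14 of 15 genes, while on the right it is highest in 13 of 31.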

How the data were processed

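The deposited values are signals, a linear intensity per probe set, made by the authors with MAS5, per the submitters' processing notes. How the arrays were scaled and how probe sets were selected is not given in the sources used here. After 23 control probe sets were dropped, signals (none under 1) were turned into log2. Groups came from the sample titles. Means per group were fitted with limma 3.58.1 (R 4.3.3) on the 9 arrays together, with Benjamini-Hochberg adjustment over 10343 probe sets, and the fit was tested on simulated data. The number of arrays limits the precision.

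Names came from the platform annotation, updated by Entrez ID to the RefSeq table of TAIR10.1, in which all 38 members matched. Unnamed probe sets (4608) and those with several genes (214) could not be members. Neighbours are the next protein-coding genes in that table. Families were grouped by gene symbol, so relatives with another symbol, only a locus or no name were not counted. Members, gene lists and the rule for named genes (deepest dips, list members, extremes at 8 d against 0 d, threshold cases, neighbours, families) were chosen with earlier results of these data known. Of 373 list genes 41 were measured, and 8 of 19 lists had none. Alternatives changed the scaling, the constant added, the filter, the prior, array weights, a replicate block, thresholds and the arrays used. Those for the anaerobic response list and for genes that are not members were added after the data were seen.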

Additional observations from a re-analysis of the deposited data

How the results depend on the processing

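The 38 members are fixed by their values, and how many named genes meet the rule depends on the scaling. It was met by 58 after quantile normalization, 46 after median centring, 24 after centring on the hybridisation controls, 22 after adding 64 to each signal, 78 with a minimum difference of 0.7 and 19 with 1.2. Leaving out 1 array gave 37 to 53, the latter without 2 d replicate 1. The median of the members at 2 d against 0 d, -1.39, became -1.64 after quantile normalization and -1.11 after adding 64, and that at 8 d against 2 d, 1.52, became 1.05 after adding 64. At 8 d against 0 d, 11 called higher and 5 lower became 4 and 0 when the dimmest 40% of probe sets were left out, which keeps 12 members in the fit, and 6 and 1 at a log2 threshold of 1.5. Other settings gave 9 to 11 and 4 to 6, and leaving out 1 array 9 to 12 and 4 to 5. In the anaerobic response list, leaving out the dimmest 40% gave 3 lower at 2 d, 7 higher at 8 d than at 2 d and 5 higher at 8 d than at 0 d, and among its 8 genes that are not members 3 and 3. After quantile normalization or median centring 1 list gene, CML38, was called lower at 8 d than at 0 d, and 0 to 1 when 1 array was left out. Correlations of the deviations ran from -0.0907 to 0.231 for same-numbered arrays and from -0.271 to 0.227 for other pairs of arrays from different groups. This cannot settle whether the numbers are a pairing, and the main fit used none. With the replicate block 11 members were called higher and 5 lower, as without it, and the list's counts were 6, 12 and 10; the block changed no call of a member at 8 d against 0 d. AT5G03350 was called higher, at 1.07, without 0 d replicate 3 and without 8 d replicate 2. No named gene called at 8 d against 0 d changed sign. Signals under 100 at 2 d limit the size of 18 dips.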

Other observations

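A further 47 probe sets met the 3 conditions on signal but have no single nuclear gene in the annotation used here, so no gene is named for them. Their falls to 2 d ranged from -4.15 to -0.91 with a median of -1.42, and their rises to 8 d from 0.91 to 5.50 with a median of 1.5. At 8 d against 0 d, 9 of the 47 were called higher and 8 lower (limma), beside 25.4% and 18.1% of all probe sets, and their median difference was 0.01.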
